A study of Mus musculus with 6 samples.

Results

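The transforming growth factor beta (TGF-beta) genes described here are the ligands Tgfb1, Tgfb2 and Tgfb3, the receptors Tgfbr1, Tgfbr2 and Tgfbr3, the signal carrier Smad3, its inhibitor Smad7, the latency protein Ltbp1 and the induced matrix protein Tgfbi. The members were taken by name, as every probe set that the array annotation gives to one of these 10 symbols alone, and 27 of the 45101 probe sets on the array were found, for 10 of 18193 genes. RNA of whole mammary glands from 3 wild-type mice and 3 Elf5 KO mice was hybridised to one-colour Affymetrix arrays, 1 array per animal. Pregnancy day 17 stands in the sample labels and lactation day 1 in the design text of the series, so the stage is not settled here. Mouse strain and age, and how or in which cells Elf5 was deleted, are not stated in the labels.

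Elf5, a luminal transcription factor of the ETS family, gave signals of 12011, 8044 and 7244 in wild-type mice 1, 2 and 3 against 5616, 4361 and 3128 in KO mice, which is 48.0% of the wild-type mean (log2 difference -1.06 ± 0.32, SE, limma adjusted p = 0.109, and 0.0151 with the replicate number as a block). A further Elf5 probe set, 1419556_at, was at 33.7% of wild type, a log2 difference of -1.83 ± 0.63 (SE). The 8 luminal markers on the array, keratins and milk proteins among them, were all above the floor of about 43.8 in signal under which genes were not tested. The Gapdh control signal at the 3' end over that at the 5' end, a measure of RNA integrity, was 0.833 to 1.09 in wild type and 0.802, 3.89 and 13.6 in KO arrays 1, 2 and 3 (log2 difference 1.92, exact permutation p = 0.4, two-sided, where 0.1 is the smallest p that 3 against 3 arrays allow). The same ratio for Actb was 1.20 to 2.04 in wild type and 1.58, 1.87 and 21.0 in KO arrays 1, 2 and 3. By Actb only KO array 3 lay above the wild-type range. The subset of arrays that follows was chosen by Gapdh alone. Values from the 4 arrays with a Gapdh ratio under 2, the 3 wild-type arrays and KO array 1, are given beside the results as "low-ratio arrays". For the Elf5 probe sets they gave -0.66 and -0.82. They hold 1 KO array and say nothing of the spread between KO mice.

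TGF-beta ligands are secreted in a latent complex that a latent TGF-beta binding protein such as Ltbp1 tethers to the matrix. Once released, a ligand binds the kinase receptor Tgfbr2, which recruits and activates Tgfbr1, and Tgfbr3 (betaglycan) presents ligand to them. The active receptors phosphorylate Smad3, which enters the nucleus and induces target genes, Tgfbi among them, and Smad7 blocks the receptors as feedback. In the mammary gland the pathway is known for restraining ductal growth, and Tgfb3 for its part in the death of milk-producing cells after weaning.

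Of the 10 genes Tgfbi rose in the KO glands. Tgfbr3 and Ltbp1 had each KO array above each wild-type array but did not pass over the 6 arrays without the replicate number as a block. With it both passed as higher, Tgfbr3 on its brighter probe set while its other one went the other way. The difference of Ltbp1 shrank without wild-type array 1. The titles do not say that the replicate numbers pair animals. The 3 ligands, both kinase receptors, Smad3 and Smad7 had overlapping groups and passed in neither fit. Signals were compared as log2(signal + 16), where 16 damps noise at dim signals, with limma over 10916 genes, each represented by its brightest probe set. Thus 1 of the 10 genes passed an adjusted p of 0.05, against 1.24% of all genes tested. With the replicate block 3 of 10 passed, all higher, against 12.2% of all genes (7.7% higher and 4.53% lower). Groups did not overlap, with the KO higher, for 3 of 10 genes against 16.7% of all genes, and with the KO lower for 0 of 10 against 10.6%. At an unadjusted p under 0.05 there were 3 of 10 members, the same 3 genes, against 21.8% of all genes. The median difference of the 10 genes was 0.12 on the log2 scale, and 0.06 over all genes tested. In bulk tissue a change in the number of cells of a type and a change of RNA per cell cannot be told apart, for these and for all results below.

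**Figure D1:**
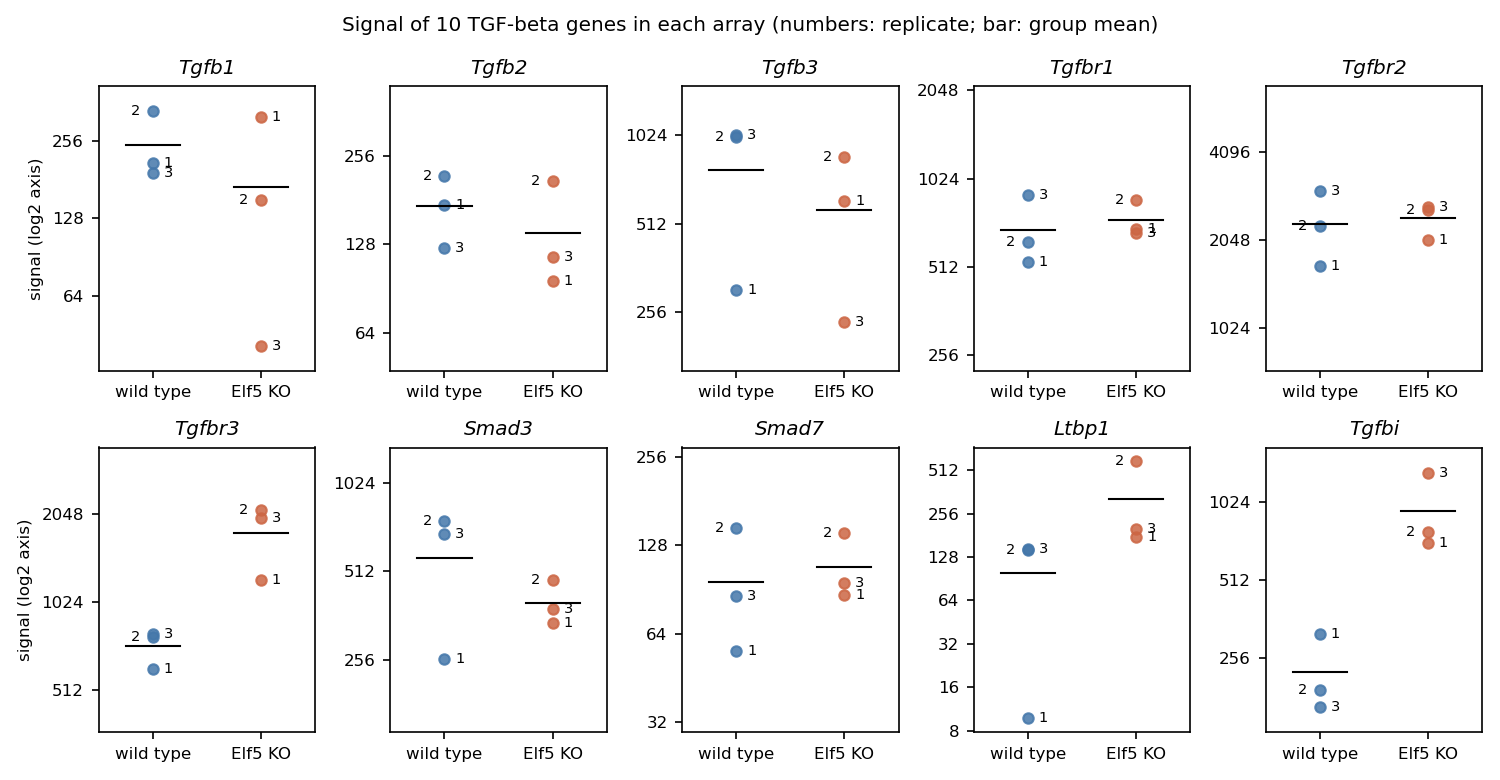
Signal of the brightest probe set of each of the 10 genes (vertical axis, log2 scale, arbitrary array units) in 3 wild-type and 3 Elf5 KO arrays; points carry the replicate number and bars are group means. Tgfbr3, Ltbp1 and Tgfbi have all 3 KO points above all 3 wild-type points, and the other 7 genes overlap.

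The sequences before the transcription start sites of Tgfbi and Ltbp1 are shown because the brightest probe sets of these genes had the largest differences among the members with a RefSeq entry. From the promoter table (RefSeq, GRCm38.p6), 9 windows for 7 of the 10 genes were used. The table held none for Tgfb3 and Tgfbr3. Smad7 has none here because member windows on its chromosome were left out. Each line gives the 250 bases before the start site, 5' to 3' on the gene's strand. Capitals mark CAGAC, the core of the element that Smad3 binds, and AGGAAG, a core of sites bound by ETS factors, in either direction.
Tgfbi, chr13:56609336-56609585, plus strand: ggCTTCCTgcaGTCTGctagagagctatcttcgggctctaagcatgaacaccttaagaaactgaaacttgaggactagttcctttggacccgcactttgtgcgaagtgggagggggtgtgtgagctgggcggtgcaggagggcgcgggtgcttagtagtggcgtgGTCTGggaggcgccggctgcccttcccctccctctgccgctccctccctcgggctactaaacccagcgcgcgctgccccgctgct
Ltbp1, upstream start, chr17:75005279-75005528, plus strand: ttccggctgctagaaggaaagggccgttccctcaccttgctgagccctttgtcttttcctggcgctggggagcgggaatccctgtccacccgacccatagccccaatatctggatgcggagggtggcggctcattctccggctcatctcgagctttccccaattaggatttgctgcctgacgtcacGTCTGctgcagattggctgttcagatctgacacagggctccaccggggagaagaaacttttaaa
Ltbp1, downstream start, chr17:75178531-75178780, plus strand: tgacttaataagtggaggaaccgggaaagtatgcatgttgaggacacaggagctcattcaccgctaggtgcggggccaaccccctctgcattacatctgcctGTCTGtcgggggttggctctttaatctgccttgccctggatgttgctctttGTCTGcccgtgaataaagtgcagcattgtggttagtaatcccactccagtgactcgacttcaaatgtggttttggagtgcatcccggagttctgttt
The Tgfbi window held CAGAC at 2 positions, whose first bases lie at -239 and -85 from the start site, and AGGAAG at -248. The upstream Ltbp1 window held CAGAC at -64, and the downstream one at -148 and -97, and neither held AGGAAG. Over the 9 windows used, 6 held CAGAC and 4 held AGGAAG. Among 32851 promoter windows of the same length in the table, 42.2% held CAGAC and 29.5% held AGGAAG, so such letters are common in promoters. No chromosome was left out of these 32851 windows. A match to letters is a description of the sequence and not a measured binding site.

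Tgfbi, a secreted matrix protein that binds integrins and is named for its induction by TGF-beta, was the member with the smallest p. Its brightest probe set, 1448123_s_at, gave signals of 318, 194 and 166 in wild-type mice 1, 2 and 3 against 712, 782 and 1322 in KO arrays 1, 2 and 3. Every KO array was well above every wild-type array. The group means were 226 ± 80.8 and 938 ± 334 (SD, n = 3), and Tgfbi rose by 1.97 ± 0.36 on the log2 scale (SE, limma adjusted p = 0.0446, and 0.0166 with the replicate block). In the low-ratio arrays the difference was 1.64, and with the log2 Gapdh ratio as a covariate 1.54, without passing in either (adjusted p = 0.221 and 0.187). Tgfbi was also the 1 of the 10 genes that had an unadjusted p under 0.05, against 9.28% of all genes, over the low-ratio arrays. Tgfbi did not pass without wild-type array 1, 2 or 3 (adjusted p = 0.0944, 0.216 and 0.159) or KO array 2 or 3 (0.122 and 0.0660), with differences of 1.70 to 2.23. Without KO array 1 it passed (0.0178), as did Tgfbr3, which makes 2 of 10 genes against 11% of all genes.

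The other 3 probe sets of Tgfbi had the same direction. Probe set 1415871_at gave 191, 149.5 and 99.7 in wild-type mice against 387, 389 and 242 in KO mice, a log2 difference of 1.14 ± 0.35 (SE). Probe set 1437463_x_at gave 279.6, 117 and 150.4 in wild-type mice against 511.5, 286 and 859 in KO mice, a difference of 1.47 ± 0.47. Probe set 1456250_x_at gave 127, 44.4 and 59.2 in wild-type mice against 356, 269 and 1077 in KO mice, a difference of 2.49 ± 0.55. All 4 Tgfbi probe sets were thus higher in each KO array than in each wild-type array. The endings _s_at and _x_at mark probe sets that can also bind related transcripts, while 1415871_at carries no such mark and gave the smallest difference. KO array 3 was the highest of the KO arrays on the 3 marked probe sets and the lowest on 1415871_at. In the low-ratio arrays the other probe sets differed by 1.35 to 2.11, and that comparison rests on KO array 1. In a separate limma fit over all 20021 probe sets above the floor, Tgfbi 1448123_s_at had an adjusted p of 0.122 and 1456250_x_at of 0.136.

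Tgfbr3, the co-receptor betaglycan, gave opposite directions on its 2 probe sets. The brighter one, 1433795_at, gave 602, 775 and 797 in wild-type mice against 1212, 2099 and 1974 in KO mice. The groups did not overlap, with means of 725 ± 107 and 1762 ± 480.2 (SD, n = 3). The log2 difference was 1.23 ± 0.31 (SE), which did not pass without the block (limma adjusted p = 0.0790) and passed with it (0.0202). Within replicate numbers 1, 2 and 3 the difference was 0.99, 1.42 and 1.29. The other probe set, 1425620_at, gave 138, 319 and 225 in wild-type mice against 157.5, 212 and 8.4 in KO mice, a difference of -1.23 ± 0.78. Its 3 KO values were apart from each other: KO arrays 1 and 2 lay within the wild-type range, and KO array 3, the array with the Gapdh ratio of 13.6, was far below it. In the low-ratio arrays the 2 probe sets differed by 0.74 and -0.42. Averaged over both probe sets, Tgfbr3 differed by 0.0029 (adjusted p = 0.997), so its call with the block rests on the brighter probe set.

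Ltbp1, which anchors latent TGF-beta to the matrix, gave 9.7, 143 and 145 in wild-type mice against 176, 589 and 200.3 in KO mice on probe set 1448870_at. Wild-type array 1 was far below the other wild-type arrays, and KO array 2 was far above the other KO arrays. The groups did not overlap, with means of 99.3 ± 77.6 and 322 ± 232 (SD, n = 3). The log2 difference was 1.75 ± 0.71 (SE, limma adjusted p = 0.195), and Ltbp1 passed only with the block (0.0366). Without wild-type array 1 it differed by 0.87 and without KO array 2 by 1.23 (adjusted p = 0.435 and 0.420). The other 2 Ltbp1 probe sets, at 0.8 to 13.6, lay under the floor of the fit and were not tested.

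**Figure D2:**
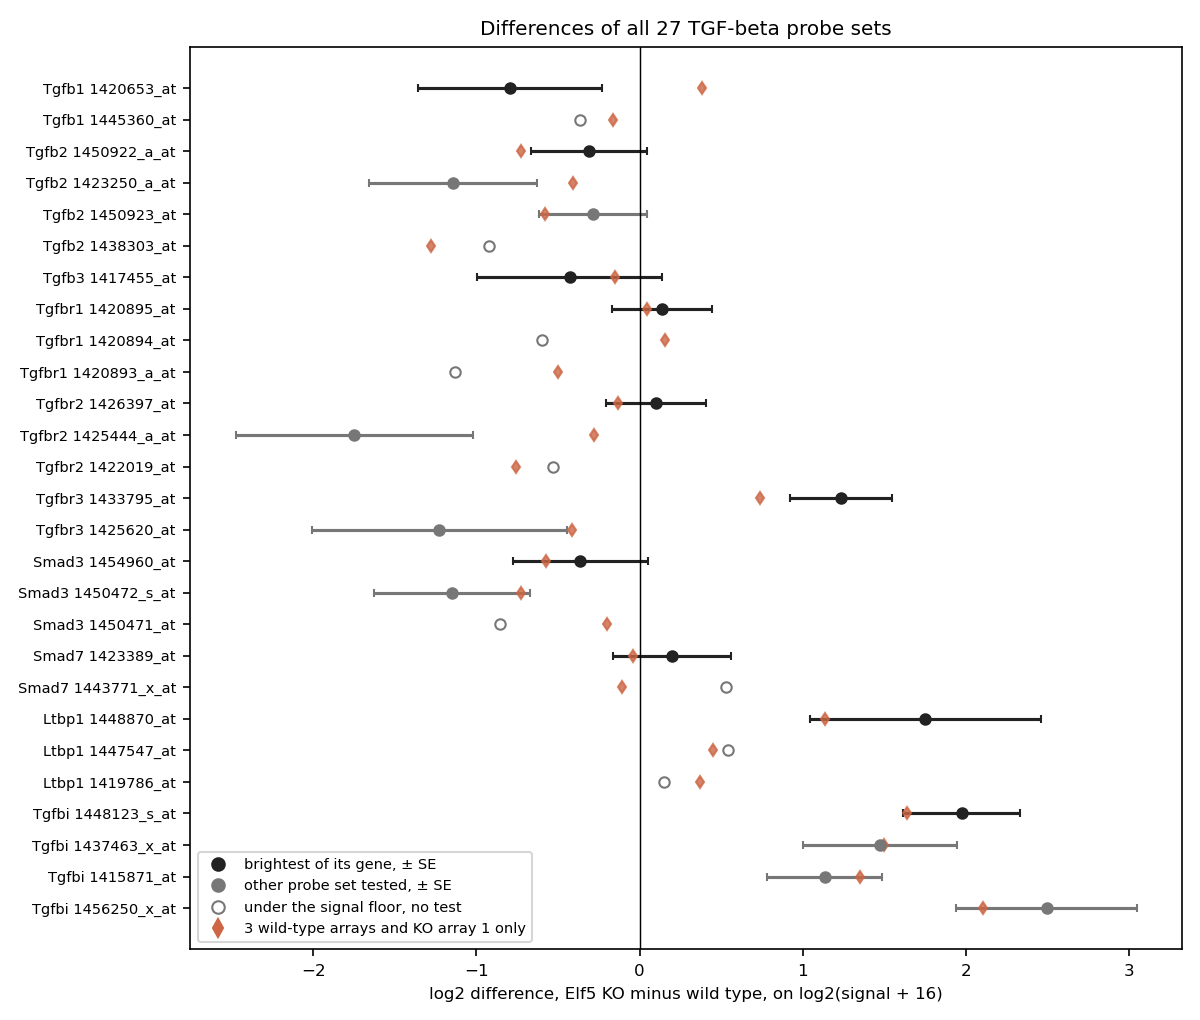
Log2 difference (horizontal axis, Elf5 KO minus wild type on log2(signal + 16), n = 3 arrays per group) for all 27 probe sets of the 10 genes; filled points have limma's standard error, open points lie under the signal floor and have no test, and diamonds compare the 3 wild-type arrays with KO array 1 alone. All 4 Tgfbi probe sets lie between 1.14 and 2.49, whereas those of Tgfbr1, Tgfbr2 and Tgfbr3 lie on both sides of 0.

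The ligands did not pass in either fit, and all 3 had a lower mean signal in the KO. Tgfb1 gave 209.7, 333 and 192 in wild-type mice against 316, 150.3 and 41.0 in KO mice on probe set 1420653_at. KO array 1 was within the wild-type range, KO array 2 below it and KO array 3 far below. The KO signals thus fell as the Gapdh ratios of the arrays rose, and the part of RNA integrity was not tested. The difference was -0.79 ± 0.56 on the log2 scale (SE, limma adjusted p = 0.421). Over the low-ratio arrays it was 0.38, and 0.39 with the Gapdh ratio as a covariate, where the sign turned. A dimmer Tgfb1 probe set, at 17.0 to 44.9, lay under the floor.

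Tgfb2 was measured by 3 probe sets above the floor. Probe set 1450922_a_at gave 175, 219.8 and 125 in wild-type mice against 95.9, 210.1 and 116 in KO mice, a difference of -0.31 ± 0.36 (SE, limma adjusted p = 0.626). Probe set 1450923_at differed by -0.28 ± 0.33 and 1423250_a_at by -1.14 ± 0.52, without passing. On 1423250_a_at wild-type mice gave 275, 245.5 and 123 and KO mice 149, 109 and 31.6, with KO array 3 the lowest. The remaining probe set, 1438303_at, lay under the floor and had a lower mean in the KO as well. The direction of the 4 Tgfb2 probe sets was the same, and in the low-ratio arrays their differences were between -0.41 and -1.28.

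Tgfb3 has a single probe set, which gave 304, 1009 and 1027 in wild-type mice against 613, 863 and 237 in KO mice. Wild-type array 1 and KO array 3 were both low, so the spread within each group was wide. The difference of -0.43 ± 0.56 (SE, limma adjusted p = 0.672) was smaller than its error, and it turned to 0.09 without KO array 3 and to 0.23 with the Gapdh ratio as a covariate. Within replicate numbers 1, 2 and 3 Tgfb3 differed by 0.98, -0.22 and -2.04.

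The kinase receptors gave nearly equal group means on their brightest probe sets. Tgfbr2, which binds the ligand, gave 1672, 2277 and 3001 in wild-type mice against 2049.8, 2595 and 2642 in the KO on 1426397_at, a log2 difference of 0.10 ± 0.31 (SE, limma adjusted p = 0.871). All 3 KO arrays lay within the wild-type range. Tgfbr1, which carries the signal on, gave 531, 622 and 904 in wild-type mice against 689, 868 and 668 in KO mice on 1420895_at, a difference of 0.14 ± 0.31 (adjusted p = 0.816). All 3 KO arrays again lay within the wild-type range.

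The dimmer probe sets of both receptors had lower means in the KO. All but Tgfbr2 1422019_at fell in order from KO array 1 over KO array 2 to KO array 3. Tgfbr2 probe set 1425444_a_at read 154, 364 and 149 in wild type, 165 in KO array 1, 56.8 in KO array 2 and 5.2 in KO array 3. It differed by -1.75 ± 0.73 (SE, limma adjusted p = 0.261 over all probe sets), and by -0.28 in the low-ratio arrays. Tgfbr1 probe set 1420893_a_at gave 53.9, 98.2 and 45.5 in wild-type mice against 39.8, 21.3 and 6.5 in KO mice, and lay under the floor of the fit. Tgfbr1 probe set 1420894_at, also under the floor, gave 33.1, 77.3 and 51.2 in wild-type mice against 59.2, 41.1 and 4.7 in KO mice. On each of these probe sets KO array 3 was the lowest. Tgfbr2 probe set 1422019_at, under the floor, gave 0.3, 3.7 and 5.5 in KO arrays 1, 2 and 3, where KO array 1 was the lowest. The part of RNA integrity in these values was not tested. Averaged over all probe sets of a gene, Tgfbr1 differed by -0.53 and Tgfbr2 by -0.73, without passing (adjusted p = 0.381 and 0.204).

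**Figure D3:**
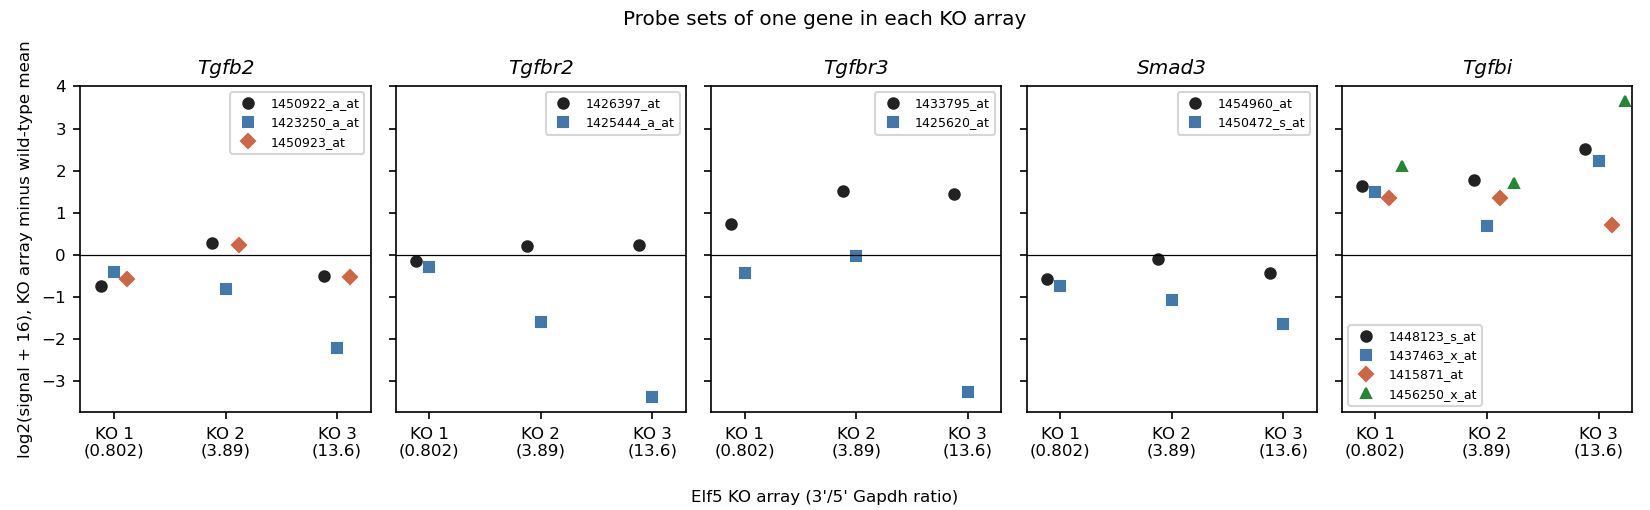
Difference of each KO array from the wild-type mean (vertical axis, log2(signal + 16)) for the 5 genes with several probe sets above the floor; each symbol is a probe set, and the Gapdh 3' to 5' ratio of the array is in brackets. In KO array 3 Tgfbr2 1425444_a_at lies at -3.37 and Tgfbr3 1425620_at at -3.25, while the brighter probe sets of the same genes lie at 0.23 and 1.44.

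Smad3, which the receptors phosphorylate, and Smad7, the inhibitor that TGF-beta itself induces, did not pass. Smad3 gave 258, 758 and 688 in wild-type mice against 341, 479 and 381 in KO mice on 1454960_at, with wild-type array 1 below all KO arrays. Its difference was -0.36 ± 0.41 on the log2 scale (SE, limma adjusted p = 0.622). A dimmer probe set, 1450472_s_at, gave 39.4, 162 and 55.8 in wild-type mice against 37.8, 26.3 and 12.6 in KO mice, a difference of -1.15 ± 0.48 (adjusted p = 0.260 over all probe sets). Its KO log2 mean of 5.33 was under the floor of 5.903, so it was tested only because of its wild-type signals. On it the groups did not overlap, by a margin of 39.4 against 37.8. Smad7 gave 55.6, 146 and 85.8 in wild-type mice against 86.8, 141 and 95.2 in KO mice on 1423389_at. Its difference was 0.20 ± 0.36 (adjusted p = 0.764), with all KO arrays inside the wild-type range.

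Counted by probe set, 18 of the 27 members lay above the floor and 9 under it. In the fit over all 20021 probe sets limma called 0 of the 18, and 0% of all probe sets, at an adjusted p of 0.05. At an unadjusted p under 0.05 there were 8 of 18, against 18.2% of all probe sets. These were the 4 of Tgfbi and 1 each of Tgfbr2, Tgfbr3, Smad3 and Ltbp1, so 6 were higher and 2 lower. The Smad3 probe set among them, 1450472_s_at, passed the filter only through its wild-type signals, and it is also the 1 with lower KO signals and no overlap in the next count. Groups did not overlap, with the KO higher, for 6 of 18 against 13.5% of all probe sets, and with the KO lower for 1 of 18 against 11.8%. KO array 3 was the lowest array for 6 of the 18, and for 36.0% of all probe sets tested. Of the 5 genes with several probe sets above the floor, 2 (Tgfbr2 and Tgfbr3) had both signs, as did 49.3% of 4429 such genes on the array.

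Other genes of the pathway were grouped by role in 3 lists that exclude the members. Like the members, the lists were chosen with earlier results of these data known. Their counts and medians beside those of all genes are therefore a description and not independent support. Among genes that hold ligand latent or release it, 12 of 15 measured genes had a higher mean in the KO and 3 a lower one, with a median log2 difference of 0.80 against 0.06 over all genes tested (0.74 over the low-ratio arrays). Over all genes tested 5888 of 10916 had a higher mean. In the deposited scaling without the block limma called 0 of the 15 and gave 9 an unadjusted p under 0.05, against 21.8% of all genes. With the block 5 rose and 0 fell, against 7.7% and 4.53% of all genes. Without the block 1 of the 15 passed after quantile normalization, 3 with equal medians and 3 without KO array 1. The same settings called 180, 273 and 1206 of all 10916 genes. Itgb8, an integrin subunit that pairs with the alpha v subunit to activate latent TGF-beta, gave 31.1, 24.6 and 94.3 in wild-type mice against 179, 346 and 817.5 in KO mice. Its difference was 2.71 ± 0.55 (SE, limma adjusted p = 0.0513, and 0.0121 with the block). Its wild-type log2 mean of 5.895 was under the floor of 5.903, so Itgb8 was tested only because of its KO signals, and a difference in this direction was built into its selection. Mmp2, a gelatinase, differed by 1.29 ± 0.29 (adjusted p = 0.0613, and 0.0182 with the block), with wild-type signals from 496 to 674 and KO signals from 1162 to 1736. Ltbp2, a relative of Ltbp1, differed by 1.62 ± 0.44 (adjusted p = 0.0879, and 0.0171 with the block), and by 0.65 in the low-ratio arrays.

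Of receptors, Smads and their regulators, 12 of 26 measured genes had a higher mean and 14 a lower one, with a median of -0.05. Limma called 0 without the block, against 1.24% of all genes, with 2 at an unadjusted p under 0.05, against 21.8%. With the block 0 rose and 1 fell, against 7.7% and 4.53% of all genes. Without KO array 1, and without the block, 3 of the 26 passed, against 11% of all genes. Foxh1, a DNA-binding partner of Smads, gave 130.2, 99.7 and 111 in wild-type mice against 75.6, 20.5 and 8.3 in KO mice, a difference of -1.58 ± 0.45 (SE, limma adjusted p = 0.0976, and 0.0270 with the block). It was -0.50 in the low-ratio arrays. Its KO log2 mean of 5.44 was under the floor, so Foxh1, the single call of this list with the block, was tested only because of its wild-type signals. Tgif2, a repressor that binds Smads, differed by 0.71 ± 0.30, and Smad4, the common partner of the signal-carrying Smads, by 0.84 ± 0.40 (adjusted p = 0.209 and 0.257).

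Of transcripts that TGF-beta is known to induce, 21 of 30 measured genes had a higher mean and 9 a lower one, with a median of 0.53 (0.70 over the low-ratio arrays). Without the block 1 rose and 0 fell, against 1.24% of all genes called, and with it 12 rose and 1 fell, against 7.7% and 4.53%. The count without the block was 2 after quantile normalization, 3 with equal medians and 8 without KO array 1. Over all 10916 genes these settings called 180, 273 and 1206. It was 0 with no filter, with the Gapdh covariate, in the low-ratio arrays, with the mean over probe sets and without any other single array. Fn1, which encodes the matrix protein fibronectin, gave 737, 508 and 509 in wild-type mice against 2957, 1723 and 1776 in KO mice and rose by 1.83 ± 0.32 (SE, limma adjusted p = 0.0446, and 0.0121 with the block). A dimmer Fn1 probe set, under the floor, was lower in the KO, and averaged over both the difference was 0.72 (adjusted p = 0.243). The call of Fn1 was also lost with no filter (0.0584), with the Gapdh covariate (0.119), in the low-ratio arrays (0.148) and without any 1 array other than KO array 1 (0.0631 to 0.216). Adam12, a metalloprotease, differed by 1.29 ± 0.28 (adjusted p = 0.0594, and 0.0204 with the block). Tnc, which encodes the matrix protein tenascin C, went the other way, with 1228, 1018.5 and 920.3 in wild-type mice against 442, 398 and 221 in KO mice. Its difference was -1.58 ± 0.33 (adjusted p = 0.0572, and 0.0151 with the block), and over the low-ratio arrays -1.22. The lists share genes with the cell type markers below: 3 of these 30 are fibroblast markers and 2 are myoepithelial markers, and 1 of the 15 latency genes is a fibroblast marker.

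**Figure D4:**
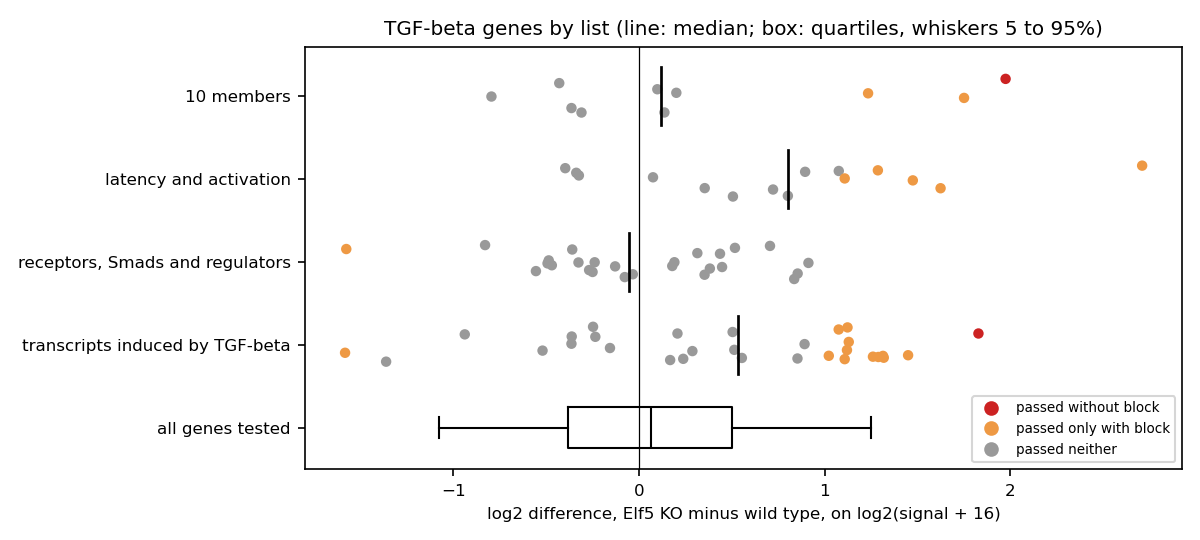
Log2 difference (horizontal axis, Elf5 KO minus wild type) of each measured gene in the 10 members and the 3 pathway lists, with the median as a line and the spread of all 10916 genes as a box; colours show which genes passed limma's adjusted p of 0.05 with or without the replicate block. The medians are 0.12, 0.80, -0.05 and 0.53 from top to bottom, against 0.06 for all genes. Members and lists were chosen with earlier results of these data known.

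Markers of fibroblasts and adipocytes, and of lymphocytes with Ptprc counted, had higher sums in every KO array, as Tgfbi, Tgfbr3 and Ltbp1 had higher signals. The part of these cell types in the results was not tested. All 10 fibroblast markers had a higher mean in the KO, and 3 passed limma's adjusted p of 0.05, against 1.24% of all genes. Their summed signal was 12202.5 to 19262 in wild type and 23383.5 to 36636 in the KO. All 6 adipocyte markers had a higher mean, none of them called, with sums of 17805 to 20914 and 24313 to 34461. Of 7 lymphocyte markers 5 had a higher mean, none of them called, with sums of 614 to 879 and 1260.1 to 2742, and Cd4 was under the floor. Cd4 and Cd8a had lower means in the KO. Ptprc was by far the brightest of the 7, so the lymphocyte sums lean on this gene. Without it KO array 2 would lie below wild-type array 1, and the lymphocyte sums would overlap. Ptprc gave 352, 281 and 313 in wild-type mice against 846, 787 and 1835 in KO mice. Of 8 macrophage markers 6 had a higher mean and 1 passed, with overlapping sums of 6784 to 9642 and 9087 to 12644, and Itgam was under the floor. Csf1r, Mrc1 and Lyz2 among them were higher in each KO array than in each wild-type array, as 16.7% of all genes were. Cd14, another macrophage marker, was lower in each KO array than in each wild-type array, as 10.6% were. The other macrophage markers overlapped. Of 8 endothelial markers 4 were higher (1350.5 to 1620.1 against 1304 to 2147), and of 10 myoepithelial markers 4 (15486 to 21894 against 12699.5 to 18911). Among the endothelial markers 1 passed, Vwf (limma adjusted p = 0.0498). It gave 60.3, 36.3 and 72.7 in wild-type mice against 158, 201 and 213 in KO mice. No myoepithelial or luminal marker passed. Of 8 luminal markers 3 were higher, with sums of 39987 to 86937 and 36153 to 47119.8. The sum of each list was far above 0 in every array.

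**Figure D5:**
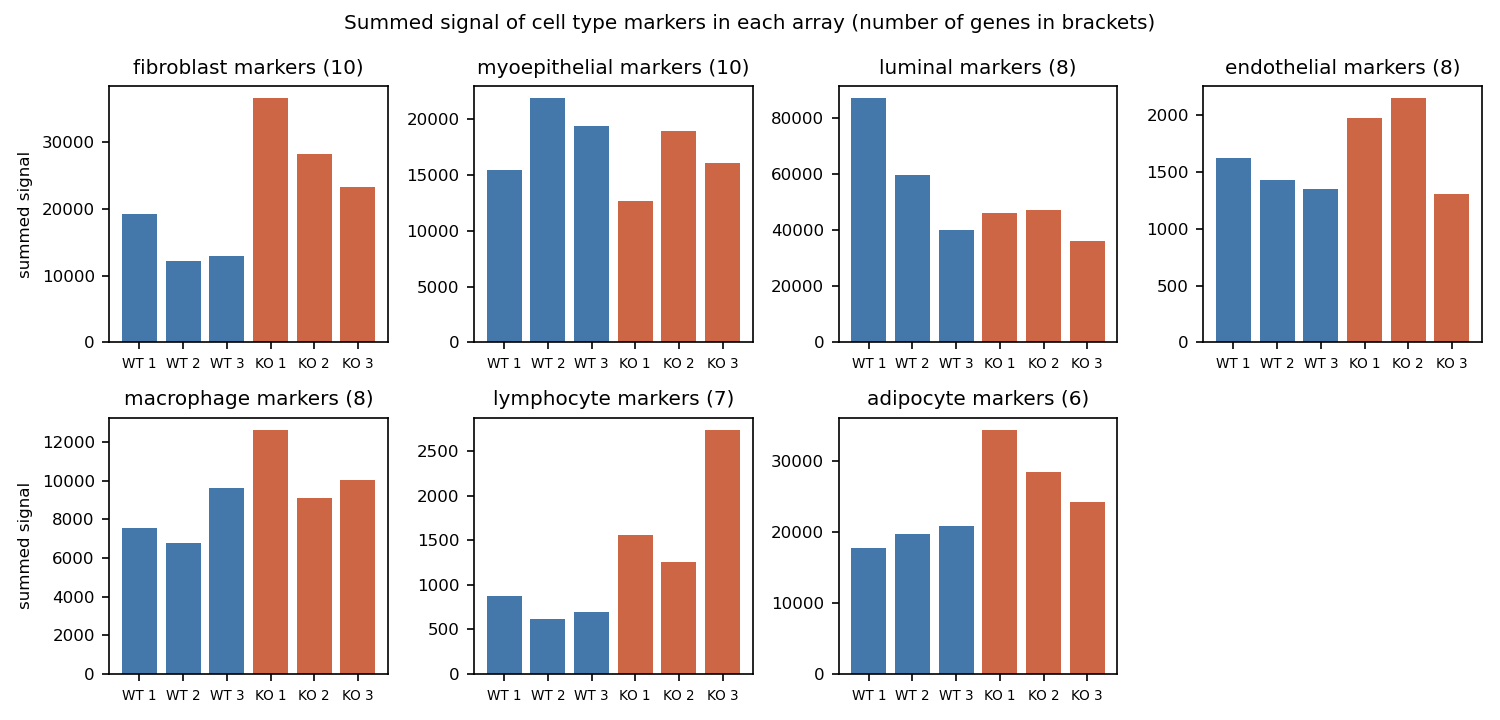
Summed signal (vertical axis, from 0) of the markers of 7 cell types in each of the 3 wild-type (blue) and 3 Elf5 KO (orange) arrays. Fibroblast, adipocyte and lymphocyte sums show every KO array above every wild-type array, and the other 4 overlap. The lymphocyte sums do so only with Ptprc counted.

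The genes whose course over the 6 arrays was most like that of a member were found by the root mean square difference between log2 profiles, each centred on its own mean. For Tgfbi these were Dock2, at a difference of 0.13, and Sesn1, at 0.18, where the Tgfbi profile itself had a root mean square of 1.06. For Tgfbr3 they were Prkd3 and Ermp1, both at 0.08. For Ltbp1 no gene came nearer than Atp1b1 at 0.41 and Hal at 0.42. Tgfb1 was nearest to Cdc42ep1 (0.16) and Sh3glb2 (0.17), Tgfb2 to Tle2 (0.13) and Nr3c2 (0.17), and Tgfb3 to Tspyl1 (0.23) and Mest (0.24). Tgfbr1 was nearest to Mynn (0.06) and Ppp2r3c (0.07), and Tgfbr2 to Nif3l1 (0.07) and Pfdn4 (0.07). Smad3 was nearest to Zfp512b (0.14) and Prdm4 (0.17), and Smad7 to Bcl2l14 (0.04) and Ppp4r3b (0.11). A gene that varies little is close to many others, so these distances are read within a member and not between members.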

How the data were processed

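The deposited table holds linear signal intensities of 45101 probe sets on 6 arrays. Per the submitters' processing notes the authors used MAS5 and the affy package, with no version, role or order given. The values show scaling to a mean of 150 in each array after trimming 2% at each end. No genome build is given in the sources used here, and the number of arrays limits the precision. Of all probe sets, 34945 were annotated to 1 gene, 932 to several and 9160 were not listed, besides 64 controls. The probe set with the highest mean log2(signal + 16) stood for a gene, and genes under the 40th percentile of these means were left out. The groups come from the sample titles, and their fit used lmFit and eBayes with trend from limma 3.58.1 (R 4.3.3), with Benjamini-Hochberg adjustment over all 10916 genes or all 20021 probe sets and a threshold of 0.05. The fit was tested on simulated data. It called 54 of 100 genes with a simulated log2 change of 2, 1 of 100 with a change of 1, and 1 of 10716 with none. A gene with a difference near 1 or less that did not pass is thus not shown to be unchanged.

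Replicate numbers come from the titles, which do not say that they pair animals. Deviations from the group means correlated at 0.46, 0.34 and 0.29 for arrays of the same number, all over the limit of 0.1. For others they correlated at most at 0.15, for wild-type array 3 with KO array 2, which is over the limit as well. The limit alone thus does not show pairing. The fit with a replicate block is given where it changes a call. The members and lists were chosen with earlier results of these data known. Named genes are the members, Elf5, per list the 3 genes of smallest p, and per member the 2 nearest profiles. Alternatives were other pseudocounts, filters, scalings and variance models, the mean over probe sets, the Gapdh ratio as a covariate, the low-ratio arrays and leaving out each array. The titles speak of biological replicates, and p-values measure the spread between these samples.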

Additional observations from a re-analysis of the deposited data

How the results depend on the processing

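The call of Tgfbi kept its direction under every alternative run, with differences from 1.54 to 2.29. Limma called 1 of the 10 genes in the deposited scaling. With no filter on low values, with the Gapdh ratio as a covariate and with the mean over probe sets it called 0. In these settings 3, 2 and 3 members had an unadjusted p under 0.05. Over all genes there were 3352 of 18193, 1112 of 10916 and 2267 of 10916. The low-ratio arrays hold 1 KO array and gave a Tgfbi difference of 1.64. With the replicate block limma called 3 members. Leaving out 1 array gave 0 to 2 members, 2 of them (Tgfbi and Tgfbr3) without KO array 1, where 11% of all genes passed. Without any of the other 5 arrays it gave 0, with 2 to 3 members at an unadjusted p under 0.05. In those settings 1553 to 1910 of all 10916 genes had an unadjusted p under 0.05.

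Over all genes, 135 were called, and 85 with a pseudocount of 1, 56 with no filter, 273 with equal medians, 1335 with the block, 69 with the mean over probe sets, and 0 both with the Gapdh covariate and in the low-ratio arrays (1112 and 1013 at an unadjusted p under 0.05). Leaving out 1 array gave 0 to 1206. Higher calls were 91.1% of the total and 63.0% with the block. Equal medians moved the median of all genes by 0.30. Over all probe sets 0 were called with 3639 at an unadjusted p under 0.05, and leaving out 1 array gave 0 to 706, with 0 to 2 probe sets of the members.

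The sign turned for Tgfb1 (0.39 with the Gapdh covariate, 0.38 in the low-ratio arrays), Tgfb3 (0.23 with the covariate), Tgfbr1 (-0.53 with the mean over probe sets), Tgfbr2 (-0.045 with the covariate, -0.14 in the low-ratio arrays, -0.73 with the mean), Tgfbr3 1425620_at (0.066 with the covariate) and Smad7 (-0.041 in the low-ratio arrays). Leaving out 1 array gave -0.99 to 0.089 for Tgfb3 (above 0 without KO array 3), and, below 0 without wild-type array 1, -0.025 to 0.35 for Tgfbr1, -0.11 to 0.30 for Tgfbr2 and -0.080 to 0.51 for Smad7. Under the floor, and untested, Tgfbr1 1420894_at turned to 0.16 and Smad7 1443771_x_at to -0.11 in the low-ratio arrays. None of these passed in either direction, and the cause was not tested.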
